A study of Mus musculus with 13 samples.

Results

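Haem is made by a chain of enzymatic steps that begins and ends in the mitochondrion, and its iron is carried across the inner membrane by mitoferrins. The 9 genes described here are Alas1, Alas2, Alad, Uros, Urod, Cpox, Ppox and Fech, which encode enzymes of that route, and Slc25a37, which encodes mitoferrin 1. They were chosen by gene symbol, all 9 were among the 18748 genes of the deposited table, and all 9 passed the filter on low counts that left 14067 genes for testing. Messenger RNA came from the mandibular condylar cartilage of the temporomandibular joint, in 7 libraries from young mice (2 months old) and 6 from aged mice (18 months old). The labels give no strain, sex, genotype or treatment, and they do not say whether each library came from 1 mouse. The p-values therefore measure the spread between these libraries, which may be partly technical. The study compares gene expression between the ages. All 9 genes were higher in the aged libraries, Alas2 by far the most and Alas1 the least.

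Aminolaevulinate synthase joins glycine and succinyl-CoA in the mitochondrial matrix and sets the pace of the pathway. It has a pair of genes: Alas1, used in nearly all tissues and repressed by haem, and the X-linked Alas2, used in developing red cells and switched on by the erythroid factor GATA1, with a translational brake in its messenger that is released when iron is plentiful. The cytosolic enzymes Alad, Uros and Urod act in building the ring, Cpox and Ppox oxidise it in the mitochondrion, and Fech inserts the iron. Cartilage has no blood vessels of its own, and red cell precursors that make haem in bulk sit mainly, but not only, in marrow.

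RefSeq promoter windows (build GRCm38.p6, which is not the build of the deposited table) were matched by symbol for 7 of the 9 genes, Fech and Slc25a37 not among them, and gave 10 windows. Each was searched in the 250 bases before the annotated start for letters that GATA factors recognise: AGATAA as well as AGATAG, the form TGATAA and lastly TGATAG, on both strands. The sequences below are those of the erythroid and the housekeeping synthase, set against each other, and of the other windows with a match. Capitals mark the matches, which all lie on the opposite strand and so read reversed and complemented. Alas2 is from chrX:150547167-150547416 (+ strand), Alas1 from chr9:106247955-106248204 (− strand), the second listed Uros start from chr7:133702501-133702750 (− strand) and Cpox from chr16:58669958-58670207 (+ strand).
Alas2: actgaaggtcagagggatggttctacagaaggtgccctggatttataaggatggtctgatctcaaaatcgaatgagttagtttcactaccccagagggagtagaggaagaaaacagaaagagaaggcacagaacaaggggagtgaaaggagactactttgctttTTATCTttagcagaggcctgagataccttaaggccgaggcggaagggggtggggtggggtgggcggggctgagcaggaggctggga
Alas1: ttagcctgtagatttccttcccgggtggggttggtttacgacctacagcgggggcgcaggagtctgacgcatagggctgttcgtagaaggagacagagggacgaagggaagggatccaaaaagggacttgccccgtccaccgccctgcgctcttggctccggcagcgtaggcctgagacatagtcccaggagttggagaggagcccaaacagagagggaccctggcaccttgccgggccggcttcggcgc
Uros: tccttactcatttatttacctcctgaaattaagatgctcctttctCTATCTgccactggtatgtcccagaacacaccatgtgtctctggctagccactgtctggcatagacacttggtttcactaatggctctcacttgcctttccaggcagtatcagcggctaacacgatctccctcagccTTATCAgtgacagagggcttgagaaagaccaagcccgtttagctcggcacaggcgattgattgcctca
Cpox: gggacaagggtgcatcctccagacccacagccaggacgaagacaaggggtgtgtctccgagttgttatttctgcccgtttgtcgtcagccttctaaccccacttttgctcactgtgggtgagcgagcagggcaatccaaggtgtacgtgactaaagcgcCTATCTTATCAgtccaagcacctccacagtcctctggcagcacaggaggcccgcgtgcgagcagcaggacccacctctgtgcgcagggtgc

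In the Alas2 window 1 match began 86 bases before the start. The Uros window held 2, at 205 and 68 bases, and the Cpox window 2 that share a base, at 91 and 86 bases, with another 5 bases after the start that is not printed. The other Uros start, both Alas1 and both Alad starts, Urod and Ppox held none. Matches were thus found in 3 of 10 windows, and in 26.5% of all 32851 promoter windows of that length. Both Alas1 windows overlap each other, as do both Alad windows, so the 10 windows are not independent. At least 2 matches, as in Uros and Cpox, were found in 2 of the 10 windows and in 6.4% of all windows. These counts describe the letters only, and binding was not measured.

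The deposited counts summed to between 17531694 and 18203443 per young library and between 16356839 and 17876681 per aged library. Among 10 chondrocyte markers fixed for a check of the tissue, 1 was called higher and 7 lower, and their summed level ranged from 14240 to 21261 TPM (a read share scaled by gene length) in young and from 7656 to 17472 TPM in aged libraries. Markers of other cells were present beside them. The 18 red cell markers summed to between 2621 and 10086 TPM in young and between 11538 and 86771 TPM in aged libraries, all 18 were called higher, and none was listed at 0 throughout. The 16 skeletal muscle markers ranged from 1266 to 11902 TPM and from 10269 to 38482 TPM, with 14 called higher. The 12 neutrophil markers ranged from 4016 to 11673 TPM and from 5376 to 32468 TPM, with 9 called higher, and the 6 megakaryocyte markers, all called higher, from 72.5 to 183.5 TPM and from 114.5 to 1123 TPM. Of 8 macrophage markers 3 were higher and 2 lower (737.8 to 959.2 TPM and 580.8 to 983.0 TPM), and both adipocyte markers that passed the filter, of 5, were higher (69.0 to 146.9 TPM and 163.7 to 349.4 TPM). Beside these counts, 24.7% of all genes tested were called higher and 21.6% lower. Red cell and muscle levels were entered as covariates below, and the part of the other lists in the results was not tested. Bulk libraries cannot tell more cells of a type from more RNA per cell.

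Alas1 was the more abundant synthase transcript in most young libraries and Alas2 in every aged one. In TPM, which is scaled by gene length so that genes can be set side by side, Alas1 was above Alas2 in 5 of 7 young libraries, and Alas2 was above Alas1 in 6 of 6 aged libraries. Alas2 ran from 10.4 TPM (lowest young library) through a median of 13.2 to 35.6 TPM (highest) in young mice, and from 75.3 through 240.4 to 389.1 TPM in aged mice. Young replicates 1 and 5 stood above the other young libraries, at 35.6 and 32.9 TPM, and aged replicate 3 was the lowest aged library. No aged library reached down to a young one.

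Alas1 was tight within each age. It ran from 23.7 through 25.9 to 29.6 TPM in young mice and from 38.5 through 44.6 to 49.4 TPM in aged mice, again without overlap. The share of Alas2 in the summed TPM of both genes averaged 39.1% in the young group (SD 14.0, n = 7) and 81.4% in the aged group (SD 10.8, n = 6). The sum of both genes ran from 35.3 to 59.2 TPM in young and from 122.5 to 436.3 TPM in aged mice. The log2 ratio of Alas2 to Alas1 moved from −0.68 ± 0.85 (SD, n = 7) to 2.29 ± 0.95 (SD, n = 6), a rise of the ratio of 7.81-fold. The aged and young ratios did not overlap (two-sided exact permutation p = 0.000583, the smallest that the 1716 splits can give; 0.00233 adjusted over the 4 ratios tested).

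**Figure D1:**
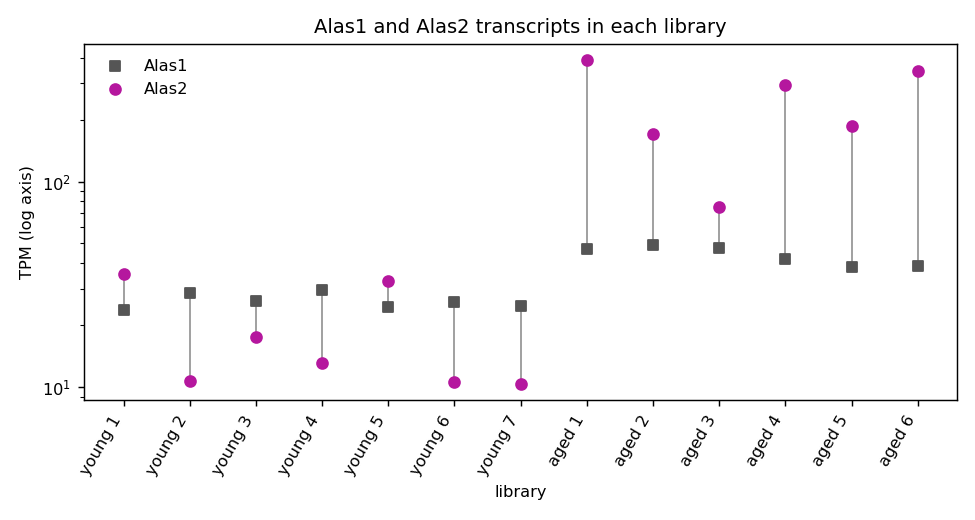
Level of Alas1 (squares) and Alas2 (circles) in TPM on a log axis, with 1 column per library and a line joining both genes of a library. Alas2 lies below Alas1 in 5 of 7 young libraries and above it in all 6 aged ones, while Alas1 stays between 23.7 and 49.4 TPM throughout.

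On the count scale, where the test was made, levels are CPM (counts scaled to library size) after TMM scaling, a correction for library composition. Alas2 (gene ID 11656) had a mean of 15.1 CPM in young (SD 8.96, n = 7) and 189.3 CPM in aged libraries (SD 91.5, n = 6), a fitted log2 change of 3.64 ± 0.43 (SE; adjusted p = 2.12e-05 by edgeR), or 12.5-fold. Ranked by fitted rise, Alas2 stood at place 28 of the 14067 genes tested and Alas1 at place 1914. Alas1 (gene ID 11655) had a mean of 30.6 CPM (SD 2.32) in young and 48.7 CPM (SD 4.23) in aged libraries, a fitted log2 change of 0.67 ± 0.07 (SE; adjusted p = 3.74e-06 by edgeR), or 1.59-fold. The coefficient of variation between young libraries was 7.59% for Alas1 and 59.3% for Alas2.

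All 9 genes were called higher by edgeR's quasi-likelihood test at an adjusted p under 0.05, and 0 were called lower. Among all genes tested 24.7% were called higher and 46.2% in either direction. The libraries of the ages did not overlap for any of the 9 genes, which held, with the aged libraries higher, for 8.28% of all genes tested (10.9% with the aged libraries lower, 19.2% in either direction). The median log2 fold change of the 9 genes was 1.27, against 0.014 over all genes tested. With library sizes alone in place of TMM factors the median over all genes moved to 0.24, and all 9 genes stayed called.

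The cytosolic steps rose between 1.94-fold and 2.93-fold. Alad (gene ID 17025), which joins a pair of aminolaevulinate molecules into porphobilinogen, ran from 12.2 through 14.4 to 16.3 CPM in young mice and from 24.7 through 42.5 to 54.4 CPM in aged mice. The fitted log2 change was 1.55 ± 0.16 (SE; adjusted p = 5.88e-06 by edgeR). The highest aged libraries were replicates 1 and 6 and the lowest replicate 2, and the aged spread was 11.9 CPM (SD) against 1.43 CPM in young.

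Uros (gene ID 22276), which closes the porphyrin ring, ran from 9.66 through 10.7 to 11.5 CPM in young and from 15.4 through 27.2 to 29.3 CPM in aged libraries, a fitted log2 change of 1.22 ± 0.14 (SE; adjusted p = 1.35e-05 by edgeR). Aged replicates 2 and 3 were low, at 15.4 and 18.6 CPM, and the other 4 lay between 26.1 and 29.3 CPM. Urod (gene ID 22275), which trims the side chains of the ring, ran from 28.3 through 29.3 to 34.4 CPM in young and from 46.7 through 62.4 to 68.9 CPM in aged mice. It had the smallest change of the cytosolic enzymes, 0.95 ± 0.10 (SE; adjusted p = 3.84e-06 by edgeR), with replicates 2 and 3 again lowest among the aged.

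The mitochondrial steps after the ring is built rose as well. Cpox (gene ID 12892), which oxidises coproporphyrinogen, ran from 29.6 through 33.4 to 43.6 CPM in young and from 49.6 through 110.1 to 130.4 CPM in aged libraries. The gap between the highest young and the lowest aged library was narrow, and the log2 fold change was 1.47 ± 0.20 (SE; adjusted p = 7.05e-05 by edgeR). Ppox (gene ID 19044), which makes protoporphyrin, ran from 19.6 through 23.3 to 27.3 CPM and from 37.6 through 42.4 to 55.5 CPM. The fitted log2 change was 0.97 ± 0.10 (SE; adjusted p = 7.91e-06 by edgeR).

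Fech (gene ID 14151), the ferrochelatase that completes haem, ran from 56.3 through 63.2 to 71.6 CPM in young and from 101.4 through 171.1 to 189.99 CPM in aged mice, a fitted log2 change of 1.27 ± 0.15 (SE; adjusted p = 1.86e-05 by edgeR). The aged libraries fell apart into replicates 2 and 3, at 103.4 and 101.4 CPM, and the other 4, between 160.1 and 189.99 CPM. Slc25a37 (gene ID 67712), whose protein brings iron to Fech in red cell precursors, had the second largest change of the 9 genes. It ran from 37.6 through 52.7 to 81.3 CPM in young and from 109.7 through 235.7 to 302.7 CPM in aged mice, a fitted log2 change of 2.07 ± 0.25 (SE; adjusted p = 2.73e-05 by edgeR). The highest young library was replicate 5, which was also high for Alas2.

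**Figure D2:**
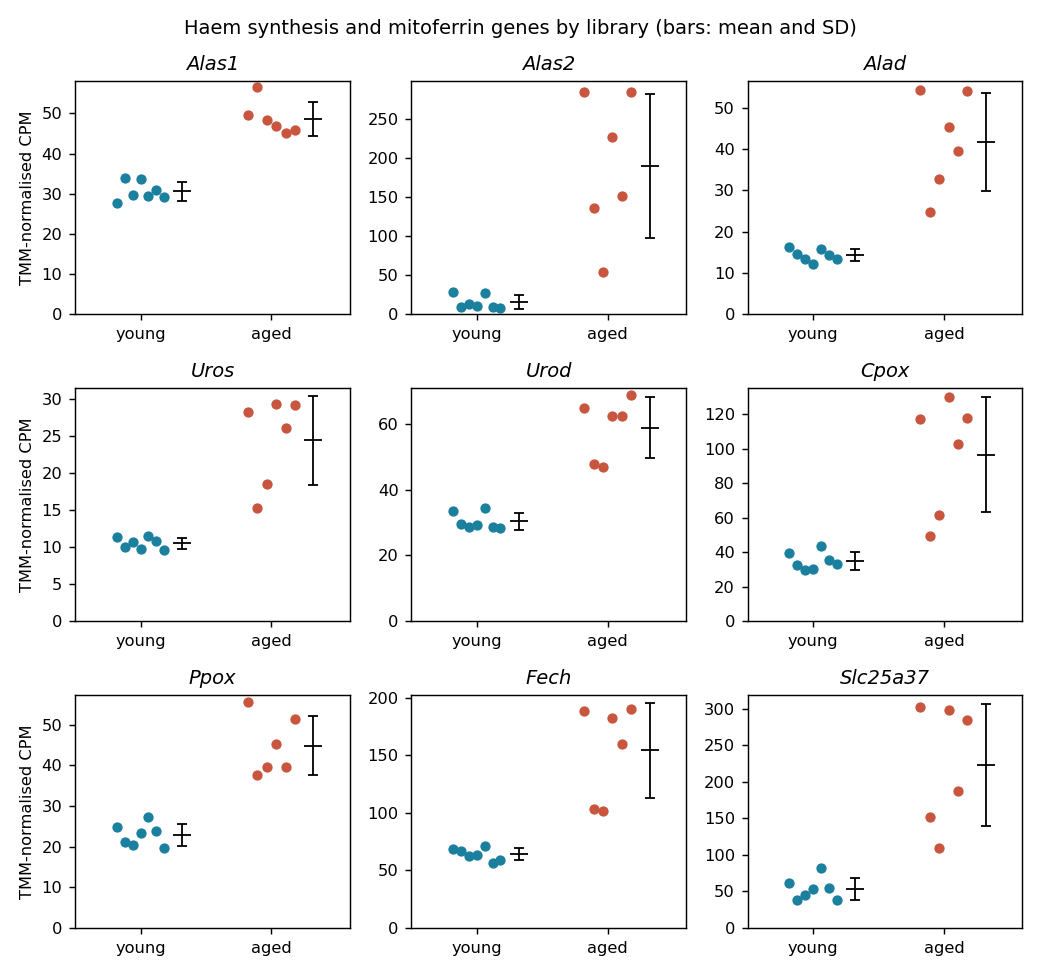
TMM-normalised CPM of the 9 genes, with 1 point per library (7 young, 6 aged, in replicate order) and the mean and SD beside each group. The ages do not overlap in any panel. Aged replicates 2 and 3, the second and the third aged points, are the lowest aged points in every panel but that of Alas1. For Ppox replicate 5, at 39.64 CPM, is nearly level with replicate 3, at 39.61 CPM.

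The order of the transcripts changed with age. In young mice Urod had the highest median, 54.2 TPM, followed by Fech at 51.1 and Ppox at 32.2 TPM, and Alas2 had the lowest. Only the step from Fech to Ppox separated neighbours whose ranges did not overlap. In aged mice Alas2 led, followed by Fech at 136.4, Slc25a37 at 122.5 and Urod at 115.2 TPM, with Alas1 and Uros last at 44.6 and 43.3 TPM. There the ranges of neighbours overlapped except between Ppox (52.4 to 85.1 TPM) and Alas1 (38.5 to 49.4 TPM). The other genes also had higher median ratios to Alas1 in aged mice, with overlapping ranges, as a description without a test. The ratio of Slc25a37 to Alas1 had a median of 0.946 in young and 3.12 in aged libraries, and that of Alad to Alas1 a median of 0.711 and 1.85. For Urod it was 2.06 and 2.81. For Urod, Cpox and Uros 1 aged library, replicate 2, lay below the lowest young one.

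The mitoferrin genes also differed in their change with age. Slc25a28 encodes mitoferrin 2, the form found in most tissues, and went from a median of 33.2 TPM (28.3 to 38.5) in young to 39.2 TPM (36.7 to 59.6) in aged libraries, with overlap. The fitted log2 change was 0.34 ± 0.10 (SE; adjusted p = 0.0122 by edgeR). The ratio of Slc25a37 to Slc25a28 had a median of 0.786 in young and 3.23 in aged libraries, a difference of 1.74 on the log2 scale (two-sided exact permutation p = 0.00117, adjusted 0.00233 over 4 ratios). Slc25a28 was above Slc25a37 in 6 of 7 young libraries, and the ratio was above 1 in all 6 aged ones, the lowest being 1.10.

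Alas2 moved with the globin genes across libraries. The 4 adult globin genes, summed because reads may be split between their copies, took between 2554 and 9900 TPM in young and between 10932 and 84823 TPM in aged libraries. Alas2 per globin TPM ran from 0.00307 through 0.00341 to 0.00421 in young and from 0.00409 through 0.00488 to 0.00689 in aged libraries. The ratio differed by 0.54 on the log2 scale (1.45-fold), with slight overlap (two-sided exact permutation p = 0.00175, adjusted 0.00233 over 4 ratios). Slc4a1, the band 3 anion exchanger of the red cell membrane, gave a ratio in the other direction. Alas2 per Slc4a1 had a median of 1.16 in young and 0.820 in aged libraries, a difference of −0.44 on the log2 scale that was not called (two-sided exact permutation p = 0.109, the same adjusted over 4 ratios). Without young replicate 5 the difference was −0.58 (two-sided exact permutation p = 0.0281, not adjusted), so that this 1 library decided the call.

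**Figure D3:**
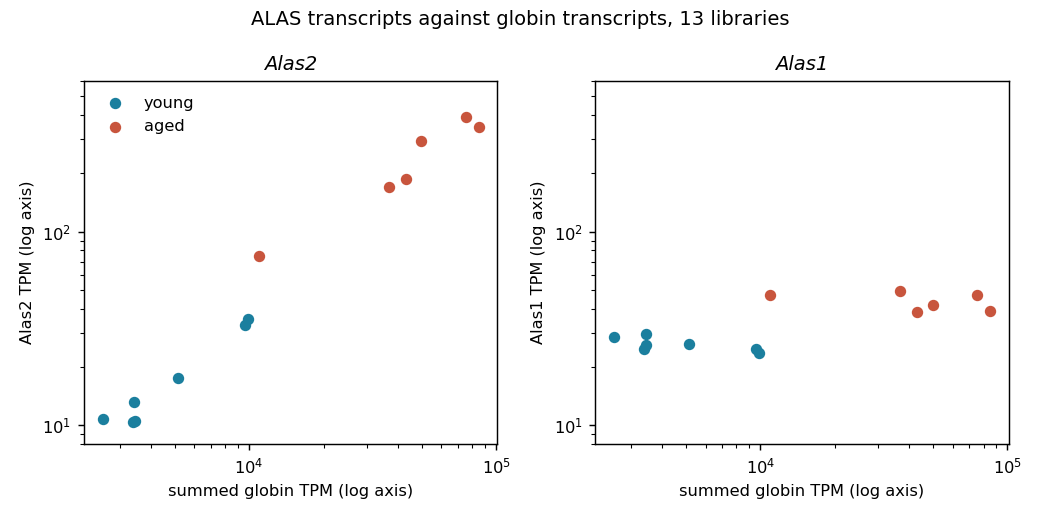
Level of Alas2 (left) and Alas1 (right) against the summed globin level, in TPM on log axes, with 1 point per library and the ages in different colours. Alas2 climbs with the globins from 10.4 to 389.1 TPM, and Alas1 forms a flat band at each age.

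Within each age the libraries were compared with the mean log2 CPM of the 18 red cell markers, none of which is among the 9 genes, and of the 16 muscle markers. This gave 36 relations, with exact permutation p-values adjusted over all of them. In the 6 aged libraries Pearson's r with the red cell level was 0.95 for Alas2 (adjusted p = 0.01), 0.976 for Urod (0.01), 0.98 for Fech (0.01) and 0.968 for Slc25a37 (0.031). Spearman's rho was 1.0 for Alas2, Urod and Fech (adjusted p = 0.0334) and 0.829 for Slc25a37 (adjusted p = 0.161). Without the 2 libraries farthest from the median r was 0.98, 0.822, 0.969 and 0.851 in the order given. Alas1 had r = −0.491 (adjusted p = 0.415) with the red cell level in aged and −0.416 (adjusted p = 0.415) in young libraries, and 0.454 and 0.496 without the 2 farthest libraries.

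In the 7 young libraries the relation to the red cell level passed for Ppox (r = 0.937, adjusted p = 0.01; rho = 0.929, adjusted p = 0.0486) and Slc25a37 (r = 0.946, adjusted p = 0.01; rho = 0.929, adjusted p = 0.0486). These held without the 2 farthest libraries, at 0.944 and 0.906. Urod had r = 0.945 (adjusted p = 0.031; rho = 0.75, adjusted p = 0.17), which fell to 0.32 without them and so rests on young replicates 1 and 5. Alas2 had r = 0.90 (adjusted p = 0.0615; rho = 0.786, adjusted p = 0.161) and 0.216 without them. With the muscle level, Alas1 had r = 0.957 in young libraries (adjusted p = 0.0262; rho = 0.857, adjusted p = 0.143), 0.723 without the 2 farthest, and 0.222 in aged libraries (adjusted p = 0.795; rho = −0.2, adjusted p = 0.803). Ppox had r = −0.988 with the muscle level in aged libraries (adjusted p = 0.0286; rho = −0.829, adjusted p = 0.161), −0.938 without the 2 farthest.

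With the red cell level of each library added to the age model as a covariate, Alas1 was the 1 gene of the 9 still called, at 0.895 ± 0.16 (SE; adjusted p = 0.0131 by edgeR). Alas2 stood at 0.37 ± 0.46 (SE; adjusted p = 0.665 by edgeR), Slc25a37 at 0.02 ± 0.28 and Cpox at 0.07 ± 0.37. The other 5 lay between 0.24 and 0.55 and were not called. Under this covariate 547 of all genes were called higher and 381 lower. The covariate itself separated the ages, from 2.22 to 4.65 log2 CPM in young and from 5.57 to 7.46 in aged libraries, so that age and the red cell level cannot be told apart in this design. With the muscle level as the covariate all 9 genes stayed called, Alas2 at 4.73 ± 0.50 and Alas1 at 0.52 ± 0.09 (SE; adjusted p = 0.00119 by edgeR). The muscle level was also tied to age (r = 0.767 with the age group). It ran from 5.09 to 7.68 log2 CPM in young and from 7.13 to 9.41 in aged libraries, with overlap. This covariate therefore separates age from the muscle level only in part.

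**Figure D4:**
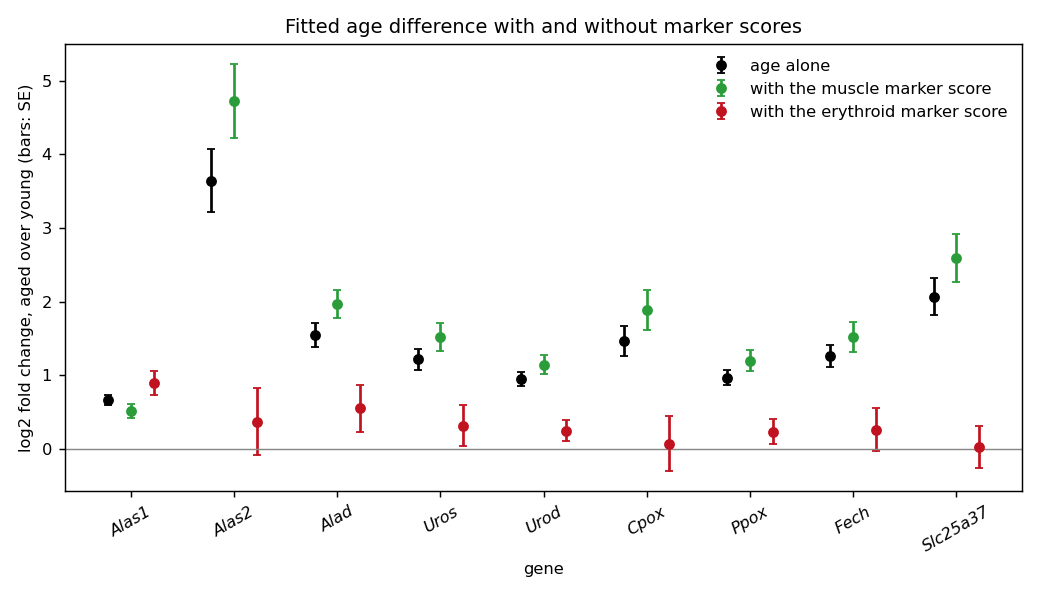
Fitted log2 fold change (aged over young) of the 9 genes, with SE, from age alone (black), with the muscle marker level (green) and with the red cell marker level (red) as a covariate. The red values lie between 0.02 and 0.55 except that of Alas1, which is 0.895.

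Among the genes whose deviations from the age mean were most like those of Alas2 over the 13 libraries were Hba-a1 (Pearson's r = 0.973), Hbb-bt (0.963), Trim10 (0.963) and Hba-a2 (0.962). The globin copies are near-identical, so the value of each is uncertain. These genes have log2 fold changes between 3.19 and 3.72, and these values describe likeness within the ages only. For Alas1 the same rule gave Zfp658 (r = 0.877), Pgpep1l (0.851), Prag1 (0.833), Cbarp (0.806) and Ptpro (0.794). These 5 genes were picked for the highest r among many genes, and their young means ran from 1.56 to 13.5 CPM. Of these Prag1 was lower in aged mice (log2 fold change −0.54), Pgpep1l and Ptpro were higher (0.79 and 0.56), and Zfp658 and Cbarp were not called. Between the members, the deviations of Uros and Cpox were the most alike (r = 0.967). Those of Alas1 had a negative r with every other member (from −0.26 to −0.66 over 13 libraries). Aged replicate 2 had the highest Alas1 level, 56.6 CPM, and the lowest aged levels of Alad, Uros, Cpox and Ppox. The values of r were not recomputed without that library. These correlations were not tested.

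Among 12 partners of haem synthesis 9 were higher, 0 lower and 3 not called, at a median log2 fold change of 0.51. The shares over all genes tested were 24.7% higher and 21.6% lower. Abcb10, a mitochondrial transporter that stabilises mitoferrin 1, rose by 1.71 ± 0.19 (SE), and Slc25a38, which brings in the glycine, by 0.96 ± 0.09 (SE). With the red cell covariate 0 of the 12 were called. Few genes of any kind were called under that covariate, 547 of 14067 higher and 381 lower.

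Of 12 genes of iron uptake and storage 3 rose, 1 fell and 8 were not called, at a median of 0.06. The share of rises was near the 24.7% over all genes tested. With the red cell covariate 0 of the 12 were called, against 547 higher and 381 lower of all 14067 genes tested. Tfrc, the transferrin receptor through which red cell precursors take up iron, was at a median of 269.0 CPM (254.3 to 292.8) in young and 248.8 CPM (173.3 to 314.1) in aged libraries and was not called (log2 fold change −0.09 ± 0.12, SE, edgeR adjusted p = 0.55). Tfr2, its relative, rose by 1.02 and Slc40a1, the iron exporter ferroportin, by 0.78, and the metal importer Slc39a14 fell by 0.53. With library sizes alone 7 of the 12 were called higher, as were 7034 of all 14067 genes tested.

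In haem transport and breakdown 4 of 10 genes rose and 3 fell, at a median of 0.17. Over all genes tested 24.7% were called higher and 21.6% lower. Blvrb, a biliverdin reductase abundant in red cells, rose by 1.47 and the haem-binding protein Hebp1 by 1.25. Hmox1, the inducible haem oxygenase, ran from 19.5 through 23.4 to 25.4 CPM in young and from 17.2 through 42.1 to 73.3 CPM in aged libraries. Its groups overlapped, and the fitted log2 change was 0.97 ± 0.24 (SE; adjusted p = 0.00535 by edgeR). Flvcr2, a membrane transporter, fell by 1.81 (6.09 to 9.98 CPM in aged against 21.6 to 34.4 CPM in young libraries), and Hmox2, the constitutive oxygenase, fell by 0.22, less than the shift of the median over all genes under library sizes alone (0.24). With library sizes alone 1 gene was called lower (1253 of all 14067 genes tested). With the red cell covariate 0 were called higher and 1 lower (547 and 381 of all genes tested).

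Of 10 genes of iron-sulfur cluster assembly, the other use of mitochondrial iron, 8 rose and 0 fell. Their median was 0.39, with Glrx5 at 0.68 and Hscb at 0.55. For this list and the next, the shares over all genes tested were 24.7% higher and 21.6% lower. With the red cell covariate 1 of them was called higher (547 of all 14067 genes tested), and with the muscle covariate 4 (1918 of all). Among 12 regulators 8 rose and 2 fell, at a median of 1.06. With the red cell covariate 0 of them were called higher and 1 lower (547 and 381 of all genes tested). The erythroid factors Gata1 and Klf1 stood at 3.62 ± 0.45 and 3.36 ± 0.45 (SE), Gata1 going from a median of 1.69 to 26.4 CPM. Ireb2 and Aco1, the iron regulatory proteins that bind the messengers of Alas2 and ferritin, fell by 0.43 and 0.21. Only 1 regulator was called lower with library sizes alone, as were 1253 of all 14067 genes tested. Ppargc1a, an inducer of Alas1 in liver, was chosen after its values were seen. It rose by 2.05 ± 0.38 (SE; adjusted p = 0.000677 by edgeR), from a median of 1.17 CPM to 4.12 CPM. Its counts in young libraries were low, from 4 to 36, and a link to Alas1 was not tested.

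**Figure D5:**
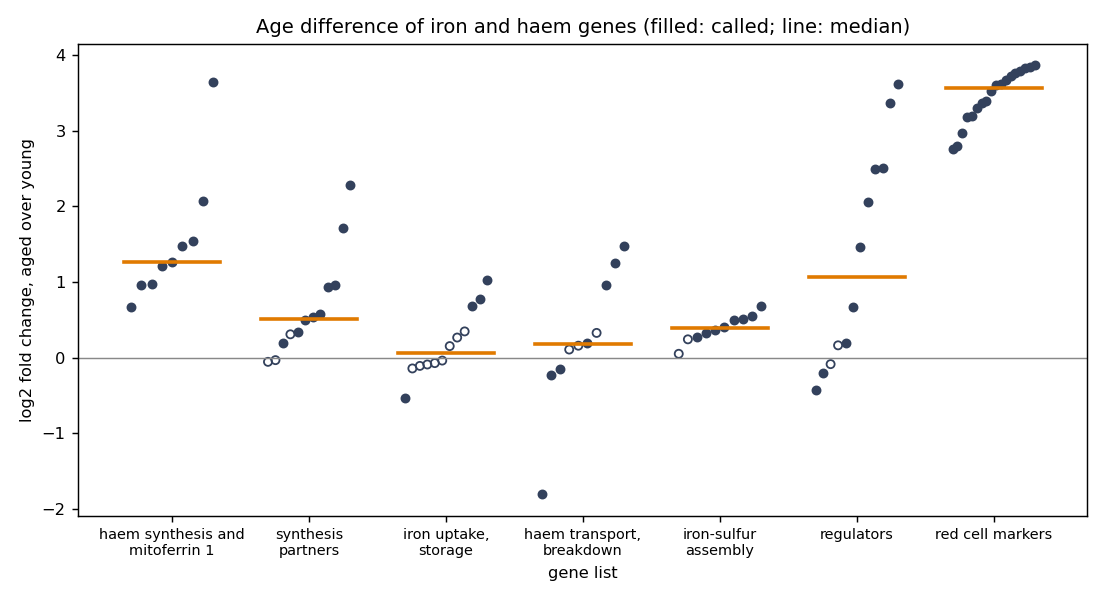
Log2 fold change (aged over young) of each gene in 7 lists, with called genes filled, others open, and the list median as a line. The synthesis genes have a median of 1.27, between the 0.06 of iron uptake and storage and the 3.57 of the red cell markers.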

How the data were processed

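Build GRCm39 and the tools HISAT2 2.1.0, Bowtie2 2.3.4.3, DESeq2 1.4.5 and RSEM 1.3.1 are named in the submitters' processing notes, without their roles. For the annotation, no name is given in these sources. The table deposited by the authors holds expected counts (5.3% of values not whole), FPKM and TPM per gene and library, per the file headers. Reads were strand-specific, per the labels' protocols.

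Expected counts were rounded and tested with edgeR 4.0.16 in R 4.3.3: filterByExpr (minimum count 10, minimum total 15), TMM factors, glmQLFit with robust estimation, glmQLFTest over all 13 libraries, Benjamini-Hochberg adjustment over all genes, threshold 0.05. The SE is the log2 fold change divided by the square root of F. Log2 CPM used a prior count of 2 for marker levels and likeness, and none for the members in the relations within each age. Ratios used deposited TPM. Alternatives used limma 3.58.1 and DESeq2 1.42.0. Scripts were tested on simulated counts.

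The members, gene lists and tests were chosen with earlier results of these data known. Genes named beyond the members were, per list, the 2 called genes with the largest rise and fall, 5 stated genes and the 5 most like each synthase gene. The globins and Slc4a1 were named as well, and Ppargc1a was added outside this rule after its values were seen. Some genes that this rule gives are not reported here. At these depths (at least 138 counts for every member in every library) the spread between libraries is the main error. No pair of libraries of 1 age agreed within sampling noise (smallest chi-square per degree of freedom 10.3).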

Additional observations from a re-analysis of the deposited data

How the results depend on the processing

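All 9 genes were called higher and 0 lower under the other scalings (library sizes alone, RLE, upper quartile), without a filter or with a stricter one, in DESeq2, in limma-voom, in limma on log2(FPKM + 1) and log2(FPKM + 0.1), with the muscle covariate and without each library in turn. The log2 fold change then lay between 3.49 and 4.73 for Alas2 and between 0.52 and 0.90 for Alas1. The red cell covariate left 1 gene called, Alas1, and ended the calls of the other 8 members, Alas2 (0.37) among them. It left called higher 0 synthesis partners, 0 iron uptake and storage genes, 0 haem transport and breakdown genes, 1 iron-sulfur gene and 0 regulators, and called lower 0, 1 and 1 in iron uptake, haem breakdown and regulators. Library sizes alone gave 7 rises in iron uptake and storage, and 1 fall each in haem breakdown and regulators, and the muscle covariate 4 rises in iron-sulfur assembly and 1 fall among regulators. The ratio of Alas2 to Slc4a1 ranged from −0.58 to −0.33 without each library in turn. The other ratios kept their direction and call with FPKM, CPM or a pseudocount of 0.1 and without each library. The replicate numbers were not treated as pairs in the main test. Same-numbered deviations correlated from −0.12 to 0.258, over 0.1 in 5 of 6 pairs, and 2 aged libraries were most like their own number. These values cannot settle whether the numbers pair the libraries. With the replicate block 9 genes were called higher, Alas2 at 3.51 and Alas1 at 0.66. Calls over all genes were 3471 higher and 3033 lower, but 7034 and 1253 with library sizes alone, 6227 and 1369 by limma on log2(FPKM + 1), 6230 and 1370 on log2(FPKM + 0.1), 547 and 381 with the red cell covariate, and 1918 and 1690 with the muscle covariate. No member or ratio had a library past Dixon's limit in 26 checks. The lowest count of any member in a library was 138 (Alas2).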
